A study of Homo sapiens with 6 samples.

Results

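The genes described here encode the proteins of the mitochondrial ribosome. They were chosen by symbol: MRPL or MRPS followed by a number. This gave 77 of the 18597 genes in the deposited tables. By the place of the protein in the ribosome, 51 belong to the large subunit (49 with MRPL symbols, and MRPS30 and MRPS18A) and 26 to the small subunit. The samples were AGS cells, an established line from a human gastric adenocarcinoma, transfected with siControl or with siDUB1, a small interfering RNA aimed at the deubiquitinase DUB1. DUB1 is a synonym of USP36 in the RefSeq gene table. There were 3 libraries of total RNA in each of the 2 groups, and all 6 came from the same line grown in the same way. Whether replicates were separate cultures is not stated, and the p-values below therefore cover the spread among these 6 libraries alone, part or all of which may be technical.

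Mitochondria keep their own ribosome, which translates the few messenger RNAs of the mitochondrial genome into core subunits of the respiratory chain and the ATP synthase. Its ribosomal RNAs are made inside the organelle, whereas every one of its proteins is encoded in the nucleus, made in the cytosol and imported. The small subunit binds the messenger RNA and decodes it, and the large subunit forms the peptide bond and passes the new chain out through a tunnel. Many of the proteins descend from those of bacterial ribosomes, and others were gained in mitochondria. Of the large-subunit genes, 30 were counted as bacterial in type and 21 as specific to mitochondria. Of the small-subunit genes, 16 and 10 fell in these classes.

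Expression was deposited as FPKM, a fragment count divided by the length of the transcript and by the library's mapped total. Summed FPKM ran from 545694 to 694878 per library, and the sequencing depth is unknown. USP36 was at 9.16, 6.74 and 7.25 FPKM in the siControl libraries and at 4.11, 4.75 and 2.59 in the siDUB1 libraries. The groups did not overlap, and USP36 fell by 0.87 on the log2 scale (SE 0.21, limma adjusted p = 0.0432, from 1.97e-04 to 0.179 with single libraries left out). Replicate 3 of siDUB1 stood apart: its correlation with the other siDUB1 libraries over tested genes was 0.964 and 0.960, against 0.997 to 0.998 for other pairs within a group. Counts and medians of gene groups are therefore given with and without it. The 6 epithelial markers summed to between 7236 and 7690 FPKM in siControl and between 5980 and 8623 in siDUB1. None of the 6 was called with all libraries (0 higher and 1 lower at an unadjusted p under 0.05 in limma). Without siDUB1 replicate 3, however, 5 were called lower (median log2 change -0.29), where 25.6% of tested genes were lower. With the correction for GC content and length 4 were called lower, against 12.2% of tested genes. Of 6 fibroblast markers, 5 were under 1 FPKM in every library, and so were the leukocyte markers PTPRC, CD3E and CD14. Other markers changed: LYZ and CD68 rose from 186.3 and 7.38 to 541.7 and 17.8 FPKM, and COL1A1 fell from 19.1 to 9.60 FPKM (limma adjusted p = 0.0119, 0.00430 and 0.0101), and their part in the results below was not tested.

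In the siControl cells, the mitochondrial ribosomal protein genes were expressed well above the typical gene. Their median was 40.8 FPKM (range 3.54 to 170.6), against 11.9 FPKM over all tested genes, and 80.4% of tested genes lay below it. All 77 passed the filter on low values, FPKM of at least 1 in at least 3 libraries, so no member is left out of the counts that follow. The large-subunit genes had a median of 52.6 FPKM and the small-subunit genes one of 33.2 FPKM. The transcripts are short, with a median length of 1032 bases against 1734.5 over tested genes, and FPKM already divides by length.

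Although the proteins occur together in one particle, the transcripts spanned a wide range of levels. The highest mean FPKM over the 6 libraries were those of MRPL41 (193.0), MRPS15 (183.0), MRPL52 (177.9), MRPL37 (168.3) and MRPL4 (164.8). MRPL41, MRPL37 and MRPL52 are mitochondria-specific proteins of the large subunit, MRPL4 lines the exit tunnel, and MRPS15 corresponds to a bacterial protein of the small subunit. The lowest were those of MRPL42 (3.40), MRPL19 (5.93), MRPS33 (6.01), MRPS25 (7.24) and MRPL50 (7.96). Both subunits thus had members at both ends of the range.

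The promoters of these genes were examined as the sequence they share beyond their names. RefSeq promoters (GRCh38.p14, 250 bases before to 50 after the start) were available for 69 of the 77 genes. Of these, 42.0% held CCGGAAG, a core bound by ETS factors such as GABP, on either strand, against 21.1% of the promoters of tested genes. The YY1 motif AANATGGCG was in 26.1%, against 7.62%. The NRF1 motif, counted on both strands like the others, was in 11.6%, against 12.6%, the E-box CACGTG in 8.70%, against 10.5%, and TATAAA in 2.90%, against 5.17%. Of the 39 ETS matches, 27 began within 50 bases of the start, and 16 of the 20 YY1 matches began after it. These 16 all lay on the strand of the gene, and their overlap with the coding sequence was not tested. The motifs searched do not contain one another, a match is a description of letters and not a bound site, and no factor binding was measured. ETS matches were in 40.9% of large-subunit and 44.0% of small-subunit promoters, and YY1 matches were in 13 of 44 and 5 of 25. Shown here are the 150 bases before the start, on the strand of the gene, with ETS matches in capitals. These stretches are from the 3 risen genes whose stretch held an ETS match and from the 1 gene that fell. They lie at chr17:75012520-75012669 (plus strand), chr22:19432395-19432544 (plus), chr2:74472681-74472830 (minus) and chr7:42932226-42932375 (plus).
MRPL58: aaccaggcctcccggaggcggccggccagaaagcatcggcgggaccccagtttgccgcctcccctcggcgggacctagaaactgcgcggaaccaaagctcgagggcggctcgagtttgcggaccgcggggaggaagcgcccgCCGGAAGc
MRPL40: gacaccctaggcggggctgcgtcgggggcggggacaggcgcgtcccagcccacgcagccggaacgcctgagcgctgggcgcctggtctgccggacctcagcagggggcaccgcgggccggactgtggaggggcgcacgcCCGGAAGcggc
MRPL53: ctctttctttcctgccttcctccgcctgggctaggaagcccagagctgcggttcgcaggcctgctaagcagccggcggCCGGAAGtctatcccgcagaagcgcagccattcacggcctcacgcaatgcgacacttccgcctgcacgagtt
MRPL32: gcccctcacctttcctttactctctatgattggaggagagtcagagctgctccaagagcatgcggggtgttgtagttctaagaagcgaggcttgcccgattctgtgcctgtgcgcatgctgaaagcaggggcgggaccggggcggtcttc
In MRPL58 the capitals begin 8 bases before the start, in MRPL40 11 bases and in MRPL53 72 bases before it. The MRPL32 stretch held none of the 5 motifs, and its YY1 matches lay outside it, 223 bases before and 9 bases after the start. The other called genes, MRPL16, MRPL22 and MRPS18B, rose too and held no whole match to the 5 motifs in the 150 bases before the start. MRPL16 had an ETS match beginning at position -6 and reaching past that stretch. MRPL22 and MRPS18B had YY1 matches at positions 36 and 24 and no ETS match in the promoter.

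After transfection with siDUB1, most mitochondrial ribosomal protein genes were slightly higher, and few passed the test adjusted over all genes. With all 6 libraries, 6 of the 77 rose, 1 fell and 70 did not pass an adjusted p of 0.05 (limma on log2(FPKM + 1), adjusted over 10994 tested genes). The background was 8.13% of tested genes higher and 5.92% lower, so the 7.79% of members that rose is no more than among genes at large. At an unadjusted p under 0.05, 23 members were higher and 2 lower, against 18.2% and 15.3% of tested genes. The median log2 change of the members was 0.20, against -0.064 over all tested genes, and 58 of the 77 (75.3%) were above 0, against 44.0%. Both groups' values were apart, with every siDUB1 library above every siControl library, in 36 members (46.8%, against 24.8% of tested genes). The opposite held in 5 members (MRPL32, MRPL19, MRPS30, MRPL39 and MRPS10), against 28.5% of tested genes. Such fold changes are on the log2(FPKM + 1) scale, which understates the change of low genes, and in these bulk samples fewer cells of a kind and less RNA per cell cannot be told apart.

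The count of calls depended on single libraries. Without siDUB1 replicate 3, 34 members were called higher and 3 lower (44.2% higher, against 31.7% of tested genes, with 25.6% lower), and the 7 genes called with all libraries were among them with the same sign. The median log2 change was then 0.13, against 0.023 over tested genes, with 62 of the 77 above 0 against 53.0%, and 14 of the 77 members had the opposite sign to that with all libraries. Without siControl replicate 1 or 3 no member passed, and without siControl replicate 2 only MRPL58 did. Few tested genes passed either. Without siControl replicates 1, 2 and 3 in turn, 0.491%, 0.609% and 0.537% of them were higher and 0.646%, 0.728% and 0.700% lower. At an unadjusted p under 0.05 in limma, 10 members were higher and 1 lower without siControl replicate 1, against 12.3% and 8.74% of tested genes. Without siControl replicate 3 these were 13 and 1, against 12.4% and 9.02%. As a share of all FPKM, the 77 genes made up 0.783%, 0.809% and 0.801% in siControl and 0.862%, 0.852% and 0.912% in siDUB1. Library by library, siDUB1 replicates 1, 2 and 3 were above the highest siControl library in 59, 48 and 51 members, against 43.4%, 44.4% and 36.3% of tested genes. They were below the lowest siControl library in 8, 7 and 22 members, against 38.7%, 37.0% and 56.9%. Replicate 3 thus had many members at both ends.

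**Figure D1:**
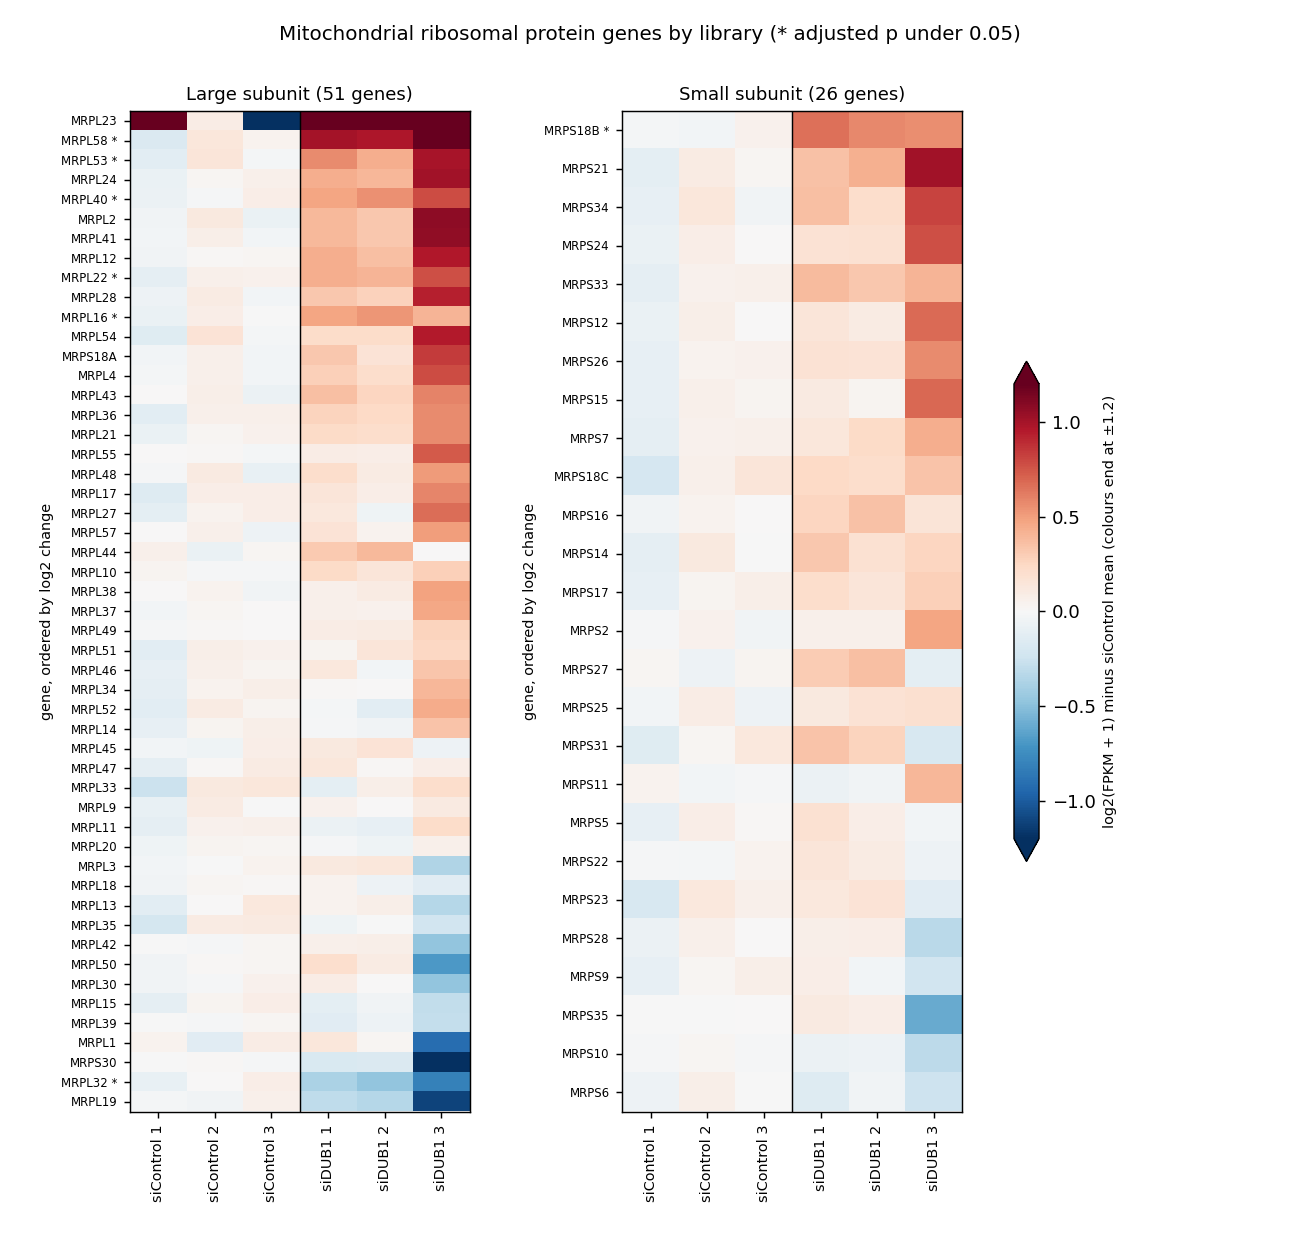
Each row is a gene and each column a library, with colour showing log2(FPKM + 1) minus the siControl mean of that gene, for the 51 large-subunit genes (left) and the 26 small-subunit genes (right). Colours end at 1.2 in either direction and an asterisk marks the 7 genes with an adjusted p under 0.05. Red prevails in the siDUB1 columns. Apart from MRPL23, whose siControl libraries differ widely, the strongest blues are in siDUB1 replicate 3.

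The largest called change was that of MRPL58 (NCBI Gene 3396, chromosome 17, 75012670 to 75021261), also known as ICT1, a peptidyl-tRNA hydrolase that frees stalled chains and is built into the large subunit at its central protuberance. It was at 23.04, 28.80 and 26.93 FPKM in siControl and at 53.26, 52.26 and 67.37 in siDUB1. The lowest siDUB1 library was well above the highest siControl library. MRPL58 rose 2.19-fold, from 26.3 ± 2.94 to 57.6 ± 8.45 FPKM (SD, n = 3 each; log2 change 1.10, SE 0.14, limma adjusted p = 0.00762). Without siControl replicates 1, 2 and 3 in turn its adjusted p was 0.0572, 0.0473 and 0.0593, with log2 changes of 1.01 to 1.17.

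Another protein of the central protuberance, MRPL40 (Gene 64976, chromosome 22, 19432545 to 19436075), was at 30.79, 31.90 and 34.21 FPKM in siControl and at 45.10, 47.79 and 56.31 in siDUB1. It rose from 32.3 ± 1.75 to 49.7 ± 5.85 FPKM (log2 change 0.60, SE 0.11, limma adjusted p = 0.0206, and up to 0.113 with single libraries left out). With the correction for GC content and length, its log2 change was 0.34 and it did not pass (adjusted p = 0.0510). Of the 8 central-protuberance genes, with a median log2 change of 0.23, these 2 rose and none fell, against 8.13% and 5.92% of tested genes. This group, like the stalk, tunnel-exit and small-subunit head groups below, was drawn up after the values were seen. The median was 0.064 without siDUB1 replicate 3, with the same count of calls, and 0.072 with the GC and length correction. MRPL52, from the same structure, had means of 170.6 and 185.2 FPKM and a log2 change of 0.098 (adjusted p = 0.687), or -0.077 without siDUB1 replicate 3.

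MRPL16 (Gene 54948, chromosome 11, 59806140 to 59810778) corresponds to a bacterial protein near the sites where transfer RNAs bind. Its values were 59.51, 66.54 and 62.65 FPKM in siControl and 87.72, 91.18 and 83.54 in siDUB1. The spread within each group was small beside the gap between them. It rose from 62.9 ± 3.52 to 87.5 ± 3.83 FPKM (log2 change 0.47, SE 0.08, limma adjusted p = 0.0192, and up to 0.112 with single libraries left out).

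At the base of the stalk, the arm where translation factors dock, MRPL53 (Gene 116540, chromosome 2, 74471982 to 74472680) was at 73.28, 88.75 and 78.43 FPKM in siControl and at 118.73, 108.10 and 159.31 in siDUB1. It rose from 80.2 ± 7.88 to 128.7 ± 27.0 FPKM (log2 change 0.66, SE 0.16, limma adjusted p = 0.0432, and up to 0.177 with single libraries left out). MRPL53 shares 45.2% of its exon bases with CCDC142, and the sources do not give whether the counting used strand, so reads of such pairs may not be separable; CCDC142 was at 3.28 and 3.17 FPKM in the 2 groups. Of the 5 stalk genes MRPL53 alone passed with all libraries, where 8.13% of tested genes were higher, and the median log2 change was 0.47. When siDUB1 replicate 3 was left out, 4 of the 5 were called higher, beside 31.7% of tested genes, and the median was 0.22. With the GC and length correction the median was 0.11. MRPL12, which carries factors on the stalk and also binds the mitochondrial RNA polymerase, was at 113.99, 118.30 and 119.41 FPKM in siControl and at 159.11, 151.05 and 229.24 in siDUB1 (log2 change 0.59, adjusted p = 0.0620), and without siDUB1 replicate 3 it was called (log2 change 0.40, adjusted p = 2.42e-05). Its groups did not overlap, and 68.2% of its exon bases are shared with another annotated coding gene. MRPL54, at the stalk base, had means of 35.2 and 50.3 FPKM (adjusted p = 0.185), with siDUB1 replicate 3 above the other siDUB1 libraries by 0.73 on the log2 scale; without that library its log2 change went from 0.47 to 0.22 (adjusted p = 0.0233).

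Around the exit tunnel, MRPL22 (Gene 29093, chromosome 5, 154941073 to 154969411) was at 12.13, 13.69 and 13.60 FPKM in siControl and at 18.12, 17.79 and 23.07 in siDUB1. It rose from 13.1 ± 0.876 to 19.7 ± 2.96 FPKM (log2 change 0.54, SE 0.13, limma adjusted p = 0.0453, and up to 0.184 with single libraries left out). The GC and length correction gave a log2 change of 0.89 and an adjusted p of 0.0595. Of the 6 tunnel-exit genes it was the only one to pass with all libraries, where 8.13% of tested genes were higher. All 6 had log2 changes above 0, from 0.076 to 2.27, the latter in MRPL23, whose siControl libraries differ widely. Above 0 were also 75.3% of all members and 44.0% of tested genes. The median of the 6 was 0.40. Without siDUB1 replicate 3 it was 0.28 with 4 called higher, beside 31.7% of tested genes. MRPL24, the neighbour of MRPL22 at the exit, was at 77.66, 83.25 and 85.54 FPKM in siControl and at 111.06, 108.24 and 165.74 in siDUB1 (log2 change 0.61, adjusted p = 0.0640). It was called without siDUB1 replicate 3 (log2 change 0.41, adjusted p = 3.48e-05).

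**Figure D2:**
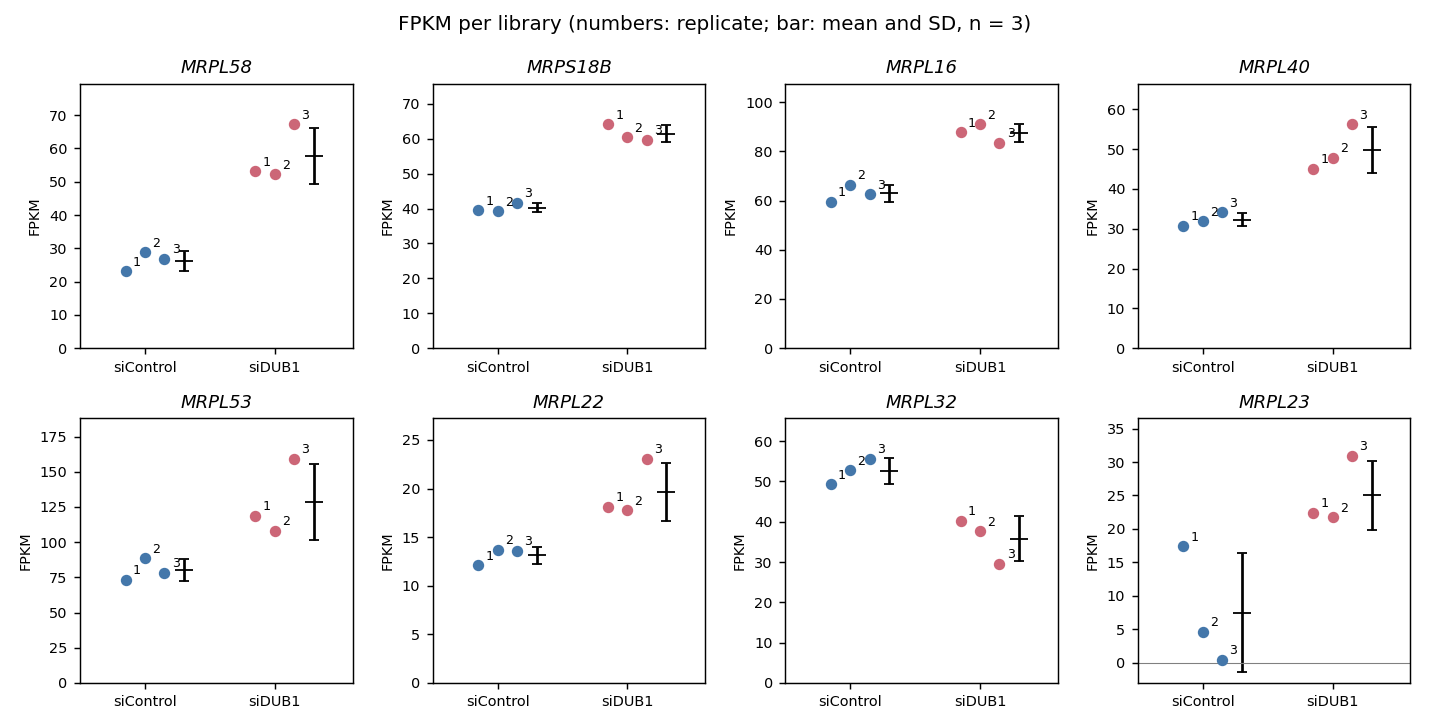
FPKM in each library for the 7 called genes and for MRPL23, with points for libraries and a line with bars for the group mean and SD of 3 libraries. The groups are apart in every panel, and the MRPL23 panel shows siControl libraries spread from 0.45 to 17.42 FPKM.

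MRPL23 (Gene 6150, chromosome 11, 1947332 to 2014944), also at the tunnel exit, had the largest log2 change of all members but did not pass. Its values were 17.42, 4.66 and 0.45 FPKM in siControl and 22.43, 21.75 and 30.95 in siDUB1 (log2 change 2.27, SE 0.85, limma adjusted p = 0.119). Without siDUB1 replicate 3 it passed, with a log2 change of 2.12 (adjusted p = 0.0180), and leaving out other single libraries gave 1.33 to 3.17. The siControl libraries differed from each other by 38.7 times. Of the 8330 tested genes with at least 5 FPKM in a siControl library, MRPL23 was the only one whose siControl libraries differed by 10 times or more. Among the other 76 members the largest such ratio was 1.32, in MRPL33. The gene shares no exon bases with another coding gene, and no pseudogene of it is listed in the RefSeq table.

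MRPL32 (Gene 64983, chromosome 7, 42932376 to 42937857) was the one member that fell. It is a protein of the large subunit that the m-AAA protease of the inner membrane trims before it joins the ribosome, as known from yeast and mouse. Its values were 49.32, 52.86 and 55.64 FPKM in siControl and 40.21, 37.66 and 29.58 in siDUB1, with siDUB1 replicate 3 the lowest. MRPL32 fell by 0.55 on the log2 scale, from 52.6 ± 3.17 to 35.8 ± 5.55 FPKM (SE 0.13, limma adjusted p = 0.0416, and up to 0.176 with single libraries left out). Without siDUB1 replicate 3 it fell by 0.42.

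Other members named for the lowest log2 changes, for low levels or for the deviation of siDUB1 replicate 3 did not pass with all libraries. MRPL19, which corresponds to a bacterial protein at the interface of the subunits, was at 7.08, 6.99 and 7.56 FPKM in siControl and at 5.66, 5.46 and 2.81 in siDUB1 (log2 change -0.58, adjusted p = 0.136). Leaving out siDUB1 replicate 3 gave a smaller log2 change of -0.32, which was called lower (adjusted p = 0.00222). MRPS30, a mitochondria-specific protein that sits in the large subunit despite its symbol, was at 26.27, 26.75 and 26.19 FPKM in siControl and at 23.07, 23.35 and 10.86 in siDUB1 (log2 change -0.52, adjusted p = 0.234). Its value in siDUB1 replicate 3 lay 1.03 below the others on the log2 scale, the furthest of all members, and without it the log2 change was -0.18 and was called lower (adjusted p = 0.0110). MRPL1, of the arm through which spent transfer RNAs leave, was at 19.18 and 17.69 FPKM in siDUB1 replicates 1 and 2 and at 8.78 in replicate 3, and its log2 change went from -0.25 (adjusted p = 0.538) to 0.079 without the latter. MRPL50 had means of 8.20 and 7.72 FPKM (log2 change -0.13, adjusted p = 0.722), and MRPL42 of 3.54 and 3.25 (log2 change -0.11, adjusted p = 0.651). MRPL2, near the catalytic centre, and MRPL41 went the other way in replicate 3, by 0.71 and 0.70, with log2 changes of 0.60 and 0.59 (adjusted p = 0.102 and 0.0944), and without it both were called higher, by 0.36 each (adjusted p = 4.13e-04 and 9.20e-05).

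In the small subunit, MRPS18B was the 1 gene of 26 that rose, and none fell, against 8.13% and 5.92% of tested genes. MRPS18B (Gene 28973, chromosome 6, 30617840 to 30626392) is one of 3 human relatives of bacterial S18. It was at 39.61, 39.32 and 41.68 FPKM in siControl and at 64.27, 60.46 and 59.80 in siDUB1. These were among the tightest groups of any called member, and siDUB1 replicate 3 was close to the others. MRPS18B rose from 40.2 ± 1.29 to 61.5 ± 2.41 FPKM (log2 change 0.60, SE 0.08, limma adjusted p = 0.00849, and up to 0.0711 with single libraries left out). MRPS18C, the relative at the S18 position of the small subunit, was at 28.98, 35.03 and 37.05 FPKM in siControl and at 39.68, 38.91 and 42.67 in siDUB1 (log2 change 0.26, adjusted p = 0.166). MRPS18A, the relative in the large subunit, was at 77.86, 83.41 and 77.88 FPKM in siControl and at 100.12, 89.35 and 143.74 in siDUB1 (log2 change 0.44, adjusted p = 0.138). All 3 relatives had every siDUB1 library above every siControl library, as did 46.8% of all members and 24.8% of tested genes. With siDUB1 replicate 3 left out, MRPS18C and MRPS18A were called higher too (log2 changes 0.22 and 0.24, adjusted p = 0.0350 and 0.00334). MRPS18A and MRPS18C share 47.0% and 40.2% of their exon bases with RSPH9 and ABRAXAS1, so reads of these pairs may not be separable.

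With all libraries, the 16 small-subunit genes of bacterial type held no call (3 higher and 0 lower at an unadjusted p under 0.05 in limma), with a median log2 change of 0.23. When siDUB1 replicate 3 was left out, 7 of them were called higher (43.8%, against 31.7% of tested genes) and the median was 0.13. The 8 genes of the small-subunit head, where the messenger RNA enters and transfer RNAs move, held none either (2 higher and 0 lower unadjusted), with a median of 0.19. Leaving out that library gave 5 called higher (62.5%, against the same 31.7%) and a median of 0.18. MRPS15 had means of 163.6 and 202.5 FPKM (log2 change 0.28, adjusted p = 0.306). MRPS33 was higher in each siDUB1 library, with means of 5.11 and 6.90 FPKM (adjusted p = 0.0792, or 0.00246 without siDUB1 replicate 3), and MRPS25 was at 6.79 and 7.69 FPKM (adjusted p = 0.336).

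The large and small subunits had medians close to each other. The median log2 change was 0.19 for the 51 large-subunit genes and 0.21 for the 26 small-subunit genes. Of the large-subunit genes 5 were higher (9.80%) and 1 lower (1.96%), or 17 and 2 at an unadjusted p under 0.05 in limma. Of the small-subunit genes 1 was higher (3.85%) and 0 lower, or 6 and 0 unadjusted. Among tested genes 8.13% were higher and 5.92% lower, or 18.2% and 15.3% unadjusted. Without siDUB1 replicate 3 the medians were 0.092 (21 higher, 3 lower) and 0.16 (13 higher, 0 lower). By class, the median was 0.12 for large-subunit genes of bacterial type (2 higher and 1 lower of 30), 0.21 for mitochondria-specific large-subunit genes (3 higher of 21) and 0.17 for mitochondria-specific small-subunit genes (1 higher of 10). With siDUB1 replicate 3 left out these were 0.077 (12 higher, 2 lower), 0.14 (9 higher, 1 lower) and 0.23 (6 higher, 0 lower). As shares, 40.0%, 42.9% and 60.0% were higher, beside the same 31.7% of tested genes.

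The balance between the subunits was also taken within each library, as the mean log2(FPKM + 1) of large-subunit genes minus that of small-subunit genes. It was 0.47, 0.42 and 0.39 in siControl and 0.44, 0.42 and 0.51 in siDUB1. The groups overlapped, with means of 0.43 ± 0.040 and 0.46 ± 0.049 (SD, n = 3 each) and a difference of 0.032. The sign of this difference turned on MRPL23: without it the values were 0.50, 0.48 and 0.49 against 0.46, 0.45 and 0.53, and the difference was -0.0089. Counting MRPS30 and MRPS18A by symbol with the small subunit gave a difference of 0.059. No test was made, since the members were chosen with results known.

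**Figure D3:**
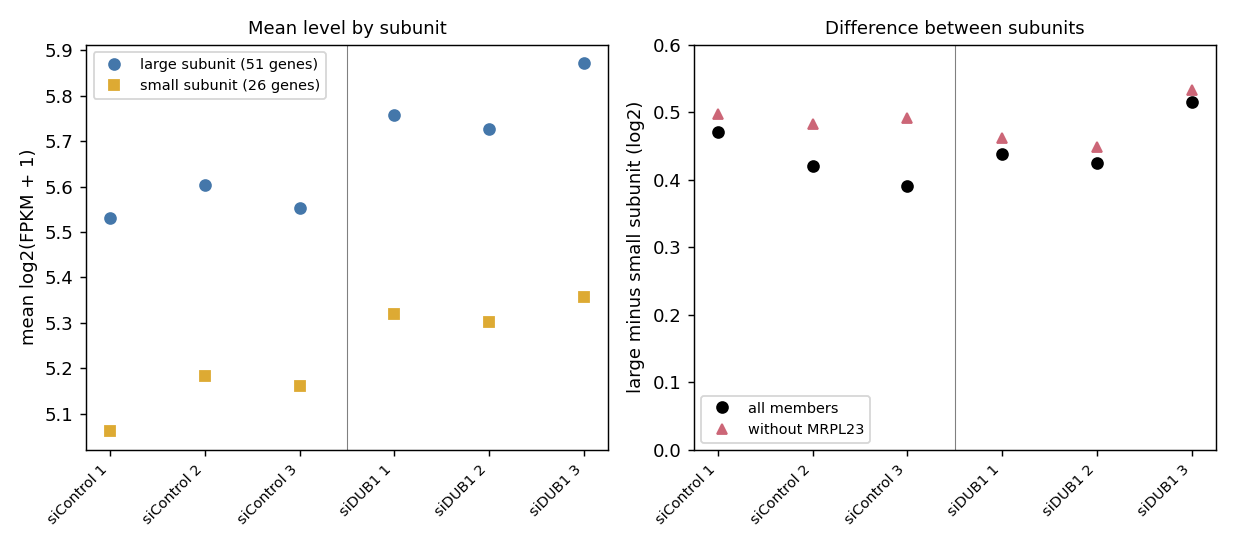
The left panel shows the mean log2(FPKM + 1) of the 51 large-subunit genes (circles) and the 26 small-subunit genes (squares) in each library; the right panel shows their difference with all members (circles) and without MRPL23 (triangles). Both subunits are higher in each siDUB1 library than in each siControl library, while the difference between them overlaps.

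**Figure D4:**
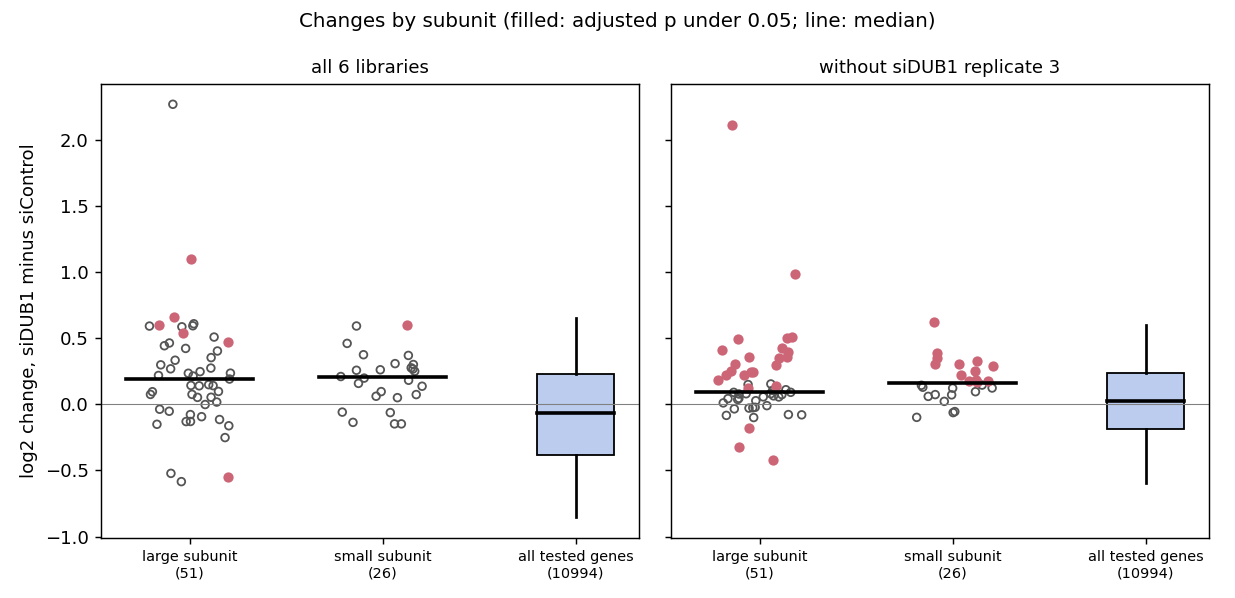
Log2 changes of the genes of the large and small subunit (points, filled where the adjusted p is under 0.05, with a line at the median) with all 6 libraries and without siDUB1 replicate 3. For all tested genes the box spans the quartiles and the whiskers the 5th to 95th percentiles. Medians for the subunits were 0.19 and 0.21 with all libraries, against -0.064 over tested genes.

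The deviation of siDUB1 replicate 3 followed the base composition of the transcripts. Across the 77 members, its log2 distance from the mean of siDUB1 replicates 1 and 2 had a Pearson r of 0.744 (Spearman rho 0.777) with transcript GC content, and across tested genes an r of 0.692. These points share the same libraries, so the values are descriptions. Replicate 3 was above both other siDUB1 libraries in all 25 of the members with the highest GC content (54.1% to 71.9% GC) and below both in 18 of the 25 with the lowest (34.96% to 46.4%). The median log2 change of the high-GC genes was 0.38 with all libraries and 0.18 without replicate 3, and that of the low-GC genes was -0.062 and 0.079. With a correction of each library for GC content and length, 11 members were higher and 1 lower (12.2% of tested genes in either direction), and the median log2 change of the members was 0.099. With siDUB1 replicate 3 also left out, 32 were higher and 8 lower, against 32.0% and 26.0% of tested genes. The coefficient of variation of a member had a median of 5.75% in siControl and 15.6% in siDUB1.

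**Figure D5:**
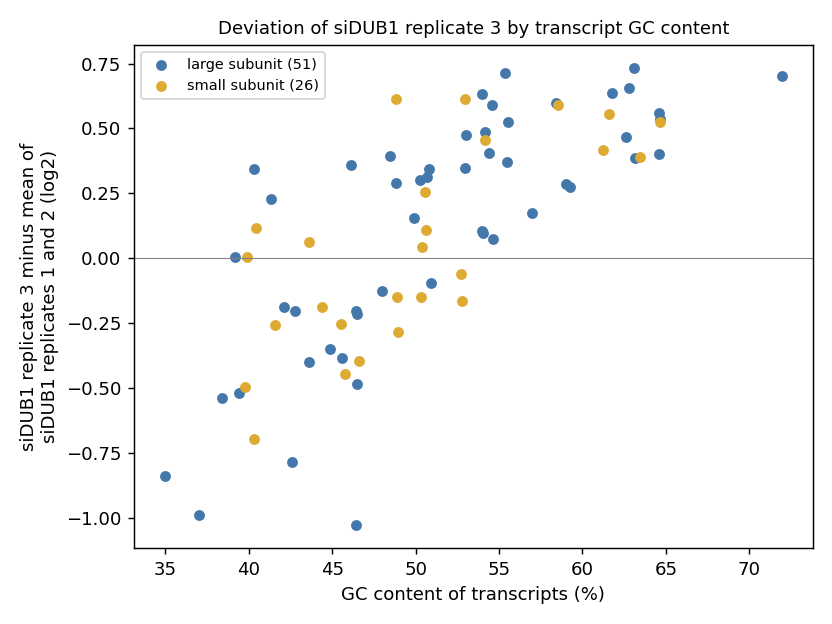
Each point is 1 of the 77 genes, with transcript GC content (%) on the x axis and the log2 distance of siDUB1 replicate 3 from the mean of siDUB1 replicates 1 and 2 on the y axis. Points climb from below 0 at low GC to above 0 at high GC in both subunits, with r of 0.744 over all members.

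The genes that surround the mitochondrial ribosome were read from lists of its other proteins, its assembly factors and its translation factors. Of 5 mitoribosomal proteins with other symbols, CHCHD1, a small-subunit protein, rose from 31.0 ± 2.26 to 42.7 ± 2.53 FPKM (log2 change 0.45, SE 0.10, limma adjusted p = 0.0306, and up to 0.138 with single libraries left out). No other of the 5 passed, where 8.13% of tested genes were higher, and the median of the 5 was 0.28. Leaving out siDUB1 replicate 3 gave 3 called higher, beside 31.7% of tested genes, and a median of 0.27. GADD45GIP1, a large-subunit protein, had means of 79.8 and 120.2 FPKM (adjusted p = 0.141), and DAP3, a small-subunit protein that binds GTP, of 90.4 and 89.9.

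Of 28 assembly factors, 3 rose (10.7%, against 8.13% of tested genes) and none fell (against 5.92%), with a median log2 change of 0.16. At an unadjusted p under 0.05 in limma, 9 were higher and 1 lower, against 18.2% and 15.3% of tested genes. TFB1M, which methylates the small ribosomal RNA, rose from 6.60 ± 0.320 to 10.04 ± 0.694 FPKM (limma adjusted p = 0.0304). RPUSD3, a pseudouridine synthase family member, rose from 42.7 ± 1.08 to 72.5 ± 18.6 FPKM (adjusted p = 0.0412). MRM1, which methylates the large ribosomal RNA, rose from 8.04 ± 0.0451 to 12.7 ± 2.33 FPKM (adjusted p = 0.0456). With single libraries left out their adjusted p reached 0.148, 0.162 and 0.175. Leaving out siDUB1 replicate 3 gave 15 higher and 3 lower, where 31.7% of tested genes were higher and 25.6% lower, and a median of 0.16.

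Of 19 translation factors, 2 rose (10.5%, against 8.13% of tested genes) and none fell (against 5.92%), with a median of 0.094. At an unadjusted p under 0.05 in limma, 4 were higher and 1 lower, against 18.2% and 15.3% of tested genes. OXA1L, which receives new chains at the tunnel exit and inserts them into the inner membrane, was at 82.87, 87.49 and 87.88 FPKM in siControl and at 129.95, 127.47 and 143.46 in siDUB1. It rose from 86.1 ± 2.79 to 133.6 ± 8.61 FPKM (log2 change 0.63, SE 0.08, limma adjusted p = 0.00855, and up to 0.0673 with single libraries left out). METAP1D, a mitochondrial methionine aminopeptidase, rose from 1.48 ± 0.211 to 2.41 ± 0.246 FPKM (adjusted p = 0.0490, and up to 0.209). With siDUB1 replicate 3 left out, 8 were higher and 1 lower, beside the same 31.7% and 25.6% of tested genes, and the median was 0.15.

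Neither of the more distant lists held a call with all libraries. Of 10 genes for upkeep and transcription of mitochondrial DNA, none passed (1 higher and 0 lower unadjusted, limma), and the median log2 change was -0.042. POLRMT, the mitochondrial RNA polymerase, had means of 28.4 and 37.6 FPKM (adjusted p = 0.139), and TWNK, the replicative helicase, of 8.09 and 10.2 (adjusted p = 0.150). Of 7 tested regulators of mitochondrial biogenesis, none passed (1 higher and 0 lower unadjusted), with a median of -0.18. ESRRA, a nuclear receptor, had means of 22.3 and 27.3 FPKM (adjusted p = 0.115), and YY1, whose motif was counted above, of 22.7 and 17.1 (adjusted p = 0.281). Both medians changed sign without siDUB1 replicate 3. The first list then had 4 higher, POLRMT and TWNK among them, and 1 lower with a median of 0.13. The second had 1 higher, ESRRA, with a median of 0.0091. Of tested genes 31.7% were higher and 25.6% lower in that setting. No row of the deposited values was matched to a gene encoded in mitochondrial DNA, so these genes were not analysed here. KGD4, formerly MRPS36, whose product belongs to the oxoglutarate dehydrogenase complex, was at 9.35 ± 0.386 and 10.1 ± 0.936 FPKM (adjusted p = 0.578).

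In the genome the mitochondrial ribosomal protein genes often stood close to other genes. In the GENCODE 29 annotation, 17 of the 77 (22.1%) had the start of another protein-coding gene within 1000 bases in divergent orientation, against 7.39% of protein-coding genes. One such pair is MRPL46 and MRPS11, a large-subunit and a small-subunit gene. An opposite-strand overlap with another coding gene was present for 26 (33.8%, against 23.6%). At least 20% of exon bases were shared with another annotated coding gene in 12 members, which was not counted for coding genes at large. Some of these partners carry clone or combined names, such as AC139530.2 for MRPL12 and URGCP-MRPS24 for MRPS24. The RefSeq table lists 106 pseudogenes for 41 of the members, none with a row in the deposited tables. How reads from them were counted is not known.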

How the data were processed

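Total RNA of AGS cells was sequenced on the BGISEQ-500, per the labels' protocols. The authors deposited FPKM values per NCBI Gene ID for 6 libraries, per the file headers. The submitters' processing notes name GRCh38. Aligner, counter, annotation, strand use and depth are not given in the sources used here. FPKM is relative to each library's total, so abundant genes that rise lower all others.

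Samples were grouped by the labelled transfection. Symbols came from a RefSeq gene table, which named 18437 of 18597 IDs. Genes with FPKM of at least 1 in at least 3 of 6 libraries (10994) were compared as log2(FPKM + 1) by lmFit and trended eBayes (limma 3.58.1, R 4.3.3), two-sided, without covariates, adjusted by Benjamini-Hochberg over all tested genes, with a threshold of 0.05. The procedure was tested on simulated data whose spread was taken without siDUB1 replicate 3. That test therefore does not cover the deviation of this library. Means and SDs are of FPKM over 3 libraries.

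The members and lists were chosen with earlier results of these data known. The named genes were the called members, the 5 largest and smallest changes, the 5 highest and lowest levels, MRPS30, the MRPS18 genes, KGD4 (MRPS36), the members where siDUB1 replicate 3 deviated most, and the leading genes per list. Some marker genes are not reported here. The stalk, tunnel, protuberance and head groups, and the genes named only there, were drawn up after the values were seen. Transcript GC content and length came from GENCODE 29 (77 of 77 members, 99.2% of tested genes). Alternatives were size factors, quantile normalization, a 5 FPKM filter or none, 0.1 and 0.01 as pseudocount, untrended eBayes, the replicate number as a block, each library left out, and a correction for GC content and length by splines with 4 degrees of freedom, with all libraries and without siDUB1 replicate 3.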

Additional observations from a re-analysis of the deposited data

How the results depend on the processing

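Quantile normalization gave 1364 genes higher and 1190 lower, 2 members lower, and a large minus small difference of -0.00104. Size factors gave 661 and 729 genes against 894 and 651, 3 members higher (losing MRPL40, MRPL53 and MRPL22) and a small-subunit median of 0.27. Without a filter no member was lower (4 higher). With the GC and length correction 1340 genes were lower, 11 members higher, the small-subunit median was 0.11 and the difference -0.0142; with siDUB1 replicate 3 also left out, these were 3513 genes higher and 2856 lower, 32 members higher and 8 lower, 0.10 and -0.00953. Leaving out single libraries gave 54 to 3481 genes higher and 71 to 2818 lower, and 0 to 34 members higher and 0 to 3 lower. USP36 missed the threshold without a filter (-0.87, adjusted p = 0.0676) and with pseudocounts of 0.1 (-1.03) and 0.01 (-1.05), and ranged from -0.68 to -1.02 with single libraries left out.

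The shared replicate numbers were checked as pairs. Deviations of same-numbered libraries had r of 0.25, -0.49 and -0.23. No siControl library correlated best with the siDUB1 library of its own number, and the best match was not sought from the siDUB1 side. With 3 libraries a group and siDUB1 replicate 3 apart, this check cannot settle whether the numbers pair the samples. The replicate block gave 81 genes higher and 98 lower, 1 member higher (MRPL58), 0 lower (limma), and an adjusted p of 0.0985 for USP36 (log2 change -0.87).

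Without siDUB1 replicate 3, 14 of the 77 members turned sign. Among the genes named in the text, signs turned for MRPL1 (0.079 without siDUB1 replicate 3, 0.17 with the correction too), MRPL52 (-0.077, -0.17, and -0.14 with the correction alone), MRPL42 (0.065, 0.13, 0.091, and 0.089 under quantile normalization), MRPL50 (0.15, 0.37, 0.32, and 0.036), MRPS15 (-0.0092) and MRPL37 (-0.020) with both changes, and ESRRA (-0.031 with the correction). With single libraries left out, MRPL1 reached -0.44, MRPL52 0.21, MRPL42 -0.21 and MRPL50 -0.29. The cause was not tested. The depth is unknown, and 3 libraries a group with 1 apart limit the precision.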
